A study of Mus musculus with 18 samples.

Results

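The comparison is between 2 mutant forms of Esr1, which encodes estrogen receptor alpha, in sorted mouse mammary cells of the gate labelled N. It holds 6 of the 18 libraries of the series, the 3 labelled D542G, N and the 3 labelled Y541S, N, and the members were chosen by these labels alone. The labels also give wild-type (WT) mice and a second gate, ML, with 3 biological replicates in each of 6 groups. All mice, of every group, were 6 months old, carried hormone pellets of estradiol (E2) and progesterone (P4), and received giredestrant, an oral estrogen receptor antagonist, at 30 mg/kg daily for 4 days. No library of mice without the pellets or without giredestrant was used here, so each difference below is one between genotypes under the drug. Neither the zygosity of the alleles nor any pooling of glands is stated in the labels.

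Estrogen receptor alpha is a ligand-activated transcription factor, and both mutations lie in its ligand-binding domain, at residues whose human counterparts are mutated in breast cancers that have become resistant to endocrine therapy. The mammary epithelium has an inner luminal layer, part of which carries the receptor and relays hormone signals to its neighbours, and an outer basal layer. Basal cells are myoepithelial: they carry smooth muscle actin and myosin, contract in response to oxytocin to expel milk, and build the basement membrane together with the stroma.

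The labels name mature luminal cells as the source of every library, and the N libraries differ from that name in their markers. Krt14, a basal keratin, was at 12144, 9916 and 12005 CPM (counts scaled to library size) in the 3 D542G N libraries and at 10648, 9469 and 19480.5 CPM in the 3 Y541S N libraries. The ML libraries of the same genotypes were at 50.1, 71.4 and 113 CPM for D542G and 50.3, 159 and 839 CPM for Y541S, so Krt14 was higher in every N library than in any ML library of either mutant. Krt18, a luminal keratin, was at 1578, 1359 and 1119 CPM in D542G N and 575, 1112 and 292 CPM in Y541S N, below its range of 3580 to 7638 CPM in the 6 ML libraries. The N libraries therefore carried basal and luminal markers together, and they are called N below and not by a cell type. In such bulk libraries, fewer cells of a type and less RNA per cell cannot be told apart.

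The 6 libraries held 40939626 to 49507144 counts. The 3 D542G N libraries were close to each other (r = 0.956 to 0.965 over log2 CPM of the 10000 most expressed genes), and the 3 Y541S N libraries were not (0.917 for 1 with 2, 0.844 for 1 with 3 and 0.803 for 2 with 3). Y541S N 3 correlated better with WT N 1 and WT N 2 (0.931 and 0.942) than with its own group. A list of 16 epidermal differentiation genes summed to 81.5, 90.99 and 13132 CPM in Y541S N 1, 2 and 3, against 67.2, 884 and 69.8 CPM in D542G N. A list of 21 milk and alveolar genes summed to 1881, 38921 and 2029.6 CPM in Y541S N and 1431, 1721 and 1441 CPM in D542G N. Y541S N 3 thus stood apart in epidermal genes and Y541S N 2 in milk genes, and counts of called genes are given below without each of them.

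Of 18298 genes tested with edgeR's quasi-likelihood test, 261 (1.43%) differed between D542G N and Y541S N at a Benjamini-Hochberg adjusted p under 0.05, and these are called below. Higher in D542G N were 77 genes (0.421% of those tested), and higher in Y541S N were 184 (1.01%). Fold changes are written as D542G N minus Y541S N on the log2 scale, with the standard error of the model, so a negative value means a higher level in Y541S N. The median over all genes tested was −0.04, that of the 77 genes 1.60 and that of the 184 genes −2.62. A difference of more than 8-fold was found for 63 of the 184 genes and for 10 of the 77. For all 261 genes the 3 CPM values of each group did not overlap, which was also true of 4451 genes (24.3%) of those tested. The spread was wide, with a biological coefficient of variation of 0.652, and the count of called genes was 103 without Y541S N 2 and 294 without Y541S N 3. It was 56, 106 and 58 without D542G N 1, 2 or 3 and 157 without Y541S N 1, all 261 genes kept their sign in each of these 6 fits, and 47 (15 higher in D542G N, 32 higher in Y541S N) were called in every one of them.

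Smooth muscle genes of the myoepithelium were higher in Y541S N. Acta2, smooth muscle actin (ENSMUSG00000035783, chromosome 19, 34241090 to 34255590, GRCm38), was at 214, 318 and 221 CPM in D542G N and 4639.6, 2438 and 2674 CPM in Y541S N. The lowest Y541S N library lay far above the highest D542G N library, with a fold change of −3.70 ± 0.70 (adjusted p = 0.0165, edgeR). Tagln, the actin-binding protein transgelin, was at 6.53, 10.5 and 5.75 CPM and 104, 54.97 and 66.1 CPM, again with no overlap (−3.30 ± 0.48, adjusted p = 0.00344, edgeR). Oxtr, the oxytocin receptor (ENSMUSG00000049112, chromosome 6, 112473683 to 112489943), through which these cells are told to contract, was at 75.7, 81.2 and 71.02 CPM in D542G N and 1809, 1183 and 623 CPM in Y541S N. Its 3 D542G N values were nearly level while its Y541S N values spread over a wide range, and the fold change was −3.99 ± 0.77 (adjusted p = 0.0183, edgeR).

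Further genes of the contractile apparatus, chosen after their values were seen, went the same way. Myl9, a regulatory light chain of smooth muscle myosin, was at 37.3, 62.9 and 50.9 CPM and 716, 441 and 457 CPM (−3.42 ± 0.51, adjusted p = 0.00417, edgeR). Pdlim3, a PDZ and LIM domain protein of actin filaments, was at 21.5, 25.9 and 26.5 CPM and 341, 276 and 146 CPM (−3.37 ± 0.47, adjusted p = 0.00248, edgeR). Lmod1, a leiomodin that nucleates actin filaments (−3.39 ± 0.63), and Tpm2, a tropomyosin (−2.80 ± 0.62), were also called. Myh11, the smooth muscle myosin heavy chain, and Cnn1, calponin, missed the threshold although their groups did not overlap: Myh11 was at 22.9, 22.1 and 22.2 CPM and 251, 94.6 and 149 CPM (adjusted p = 0.0585, edgeR). For Cnn1 the values were 34.9, 67.4 and 39.7 CPM and 808, 447 and 445 CPM (adjusted p = 0.065, edgeR). Tagln, Myl9 and Pdlim3 were called whichever of the 6 libraries was dropped. The call of Acta2 was lost without any 1 of the D542G N libraries or without Y541S N 1, that of Lmod1 without any 1 D542G N library or Y541S N 2, and those of Oxtr and Tpm2 with any library left out but Y541S N 3.

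Smooth muscle genes are classically switched on through the CArG box, the site of serum response factor. The boxes of Acta2 and Myl9 are shown, in capitals, because these genes were called in the same direction and each holds a pair of such boxes before its RefSeq start. The sequences are those of RefSeq on GRCm38.p6, 5′ to 3′ on the strand of the gene. Each Acta2 box is given with 10 bases on either side, at chr19:34255438-34255467 and chr19:34255388-34255417 (minus strand), and Myl9 as the 206 bases up to the outermost GENCODE start, at chr2:156775214-156775419 (plus strand).
Acta2 first box: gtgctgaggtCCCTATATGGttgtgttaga
Acta2 second box: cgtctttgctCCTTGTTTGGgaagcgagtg
Myl9: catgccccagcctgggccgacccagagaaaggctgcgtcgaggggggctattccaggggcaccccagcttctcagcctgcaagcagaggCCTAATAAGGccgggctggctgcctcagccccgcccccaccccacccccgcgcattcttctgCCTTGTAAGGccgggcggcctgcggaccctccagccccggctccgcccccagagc
The boxes start 84 and 34 bases before the RefSeq start of Acta2 (34255373) and 161 and 99 bases before that of Myl9 (156775464). The GENCODE spans begin 217 bases farther out for Acta2 and 44 for Myl9, so both Acta2 boxes lie within its GENCODE gene span while both Myl9 boxes lie outside that of Myl9. The search took CC, 6 bases of which at least 5 are A or T, then GG, on both strands, from 250 bases before to 50 bases after the start. It found a match in 19 of the 130 genes called higher in Y541S N that have a promoter in the table (14.6%), in 5 of 59 called higher in D542G N (8.47%) and in 1365 of all 12586 tested genes with a promoter (10.8%). The estrogen response element GGTCANNNTGACC was found in none of the called genes' windows and in 5 of the 12586 (0.0397%). The TEAD site GGAATG was in 17.7% of the windows of genes higher in Y541S N, 16.9% of those higher in D542G N and 15.2% of all, and the AP-1 site TGACTCA in 4.62%, 3.39% and 5.01%. A match is a description of letters, and no share was tested.

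Krt5, Krt14, Trp63 and Itga6, genes of the basal layer outside the contractile apparatus, were not called. Krt5, the partner of Krt14, was at 2015, 2713 and 2467 CPM in D542G N and 5344, 4663 and 11029 CPM in Y541S N (−1.55 ± 1.33, adjusted p = 0.656, edgeR), with every Y541S N library above every D542G N library as for the contractile genes. Krt14, given above, had a fold change of −0.22 ± 1.04. Trp63, the transcription factor p63 that maintains basal identity, was at 701, 713 and 692 CPM and 676, 344 and 608 CPM (0.37 ± 1.26), with each D542G N library above each of Y541S N by a narrow margin. Itga6, the laminin-binding integrin alpha 6, was at 659.8, 647 and 709.5 CPM and 721, 445 and 752 CPM (0.07 ± 0.34), with overlapping groups. The standard errors of Krt5, Krt14 and Trp63 exceed 1 on the log2 scale, so a difference of 2-fold in either direction was not detectable for them. Of the 22 genes of the basal and myoepithelial list, all tested, 6 were called, all higher in Y541S N: Acta2, Oxtr, Tagln, Lgr5, Sparc and Vim. The median of the list was −1.80, against −0.04 over all genes, and 15 of the 22 had every Y541S N library above every D542G N library while 3 had the reverse. Over all 18298 genes tested, 2263 had the first order and 2188 the reverse, and 1.01% were called higher in Y541S N. Sparc, a collagen-binding matrix glycoprotein, was at 216, 290.4 and 326 CPM and 3222, 2821 and 1502 CPM (−3.18 ± 0.53, adjusted p = 0.00845, edgeR). Vim, the intermediate filament vimentin, was at 80.6, 79.05 and 89.1 CPM and 489, 533 and 235 CPM (−2.34 ± 0.50, adjusted p = 0.0305, edgeR). The count of called members was 3 without Y541S N 2, 7 without Y541S N 3, 1 without D542G N 1 or 3, and 2 without D542G N 2 or Y541S N 1.

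**Figure D1:**
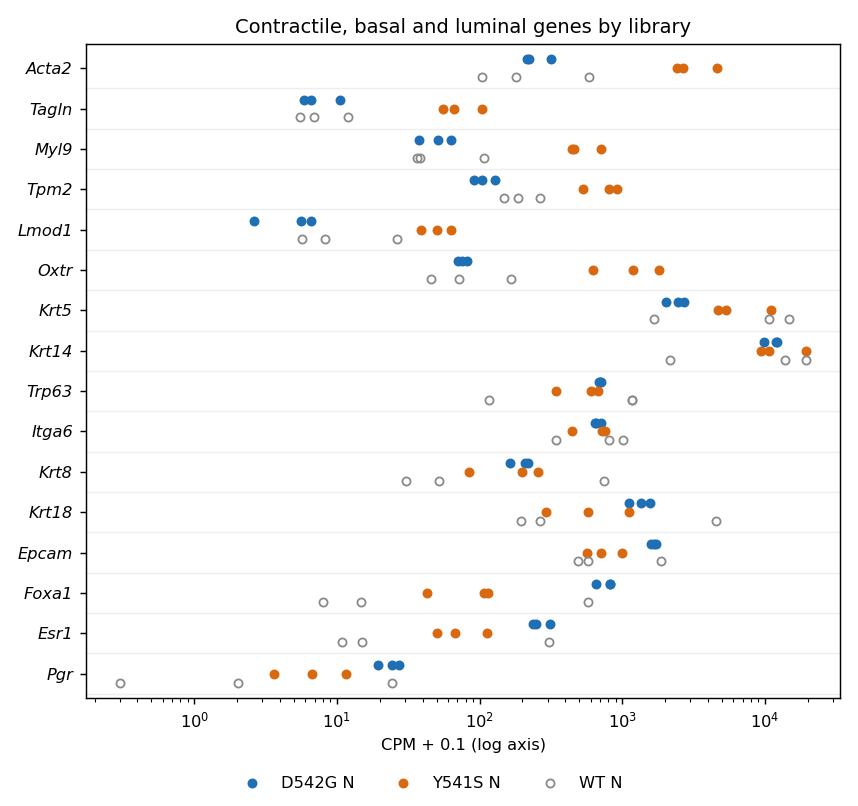
Level of 16 contractile, basal and luminal genes in the 9 N libraries, as CPM + 0.1 on a log axis, with 1 point per library (blue for D542G, orange for Y541S, open grey for WT). The 6 contractile genes at the top separate the orange from the blue points, while those of Krt14 and Itga6 overlap.

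Genes of the extracellular matrix formed another group higher in Y541S N. Of 22 collagen genes tested, 6 were called and all 6 were higher in Y541S N (list median −1.35). No collagen had all 3 D542G N libraries above all 3 of Y541S N, and 14 had the reverse order. Over all 18298 genes tested, 2188 had the first order and 2263 the reverse, and 1.01% were called higher in Y541S N. Col6a1, a chain of the beaded-filament collagen VI, was at 29.5, 54.1 and 43.4 CPM in D542G N and 576, 522 and 204 CPM in Y541S N (−3.36 ± 0.58, adjusted p = 0.00918, edgeR). Its partner chain Col6a2 was at 14.96, 18.4 and 20.3 CPM and 211, 202 and 70.6 CPM (−3.17 ± 0.70, adjusted p = 0.037, edgeR). Both chains had their lowest Y541S N value in library 3 and still did not overlap with D542G N. Col5a2, a chain of fibrillar collagen V, was at 2.53, 6.92 and 4.06 CPM and 147, 51.04 and 36.02 CPM (−4.11 ± 0.88, adjusted p = 0.0311, edgeR). Col9a2 (−2.18), Col11a1 (−2.81) and Col16a1 (−1.80) were the other called members, Col11a1 at no more than 4.37 CPM in any of the 6 libraries. Col1a1 and Col3a1, fibrillar chains given for contrast, had overlapping groups. Col1a1 was at 11.4, 17.98 and 8.33 CPM in D542G N and 5.59, 2.77 and 24.9 CPM in Y541S N. Col3a1 was at 38.5, 49.7 and 29.7 CPM and 47.1, 33 and 99.3 CPM. The number of collagens called was 0 without D542G N 1 or 3, 1 without D542G N 2, Y541S N 1 or Y541S N 2, and 7 without Y541S N 3.

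Several matrix and mesenchymal genes had larger differences than the collagens. Postn, the matricellular protein periostin (ENSMUSG00000027750, chromosome 3, 54361109 to 54391037), was at 105, 192 and 69.1 CPM in D542G N and 5165, 2093 and 1937 CPM in Y541S N (−4.65 ± 0.81, adjusted p = 0.00986, edgeR). Colgalt2, which adds galactose to collagen chains, was at 2.38, 2.08 and 1.74 CPM and 152, 75.2 and 42.8 CPM (−5.44 ± 0.87, adjusted p = 0.0068, edgeR). Prrx1, a homeobox factor of mesenchyme, was at 2.22, 0.852 and 0.751 CPM and 33.98, 23.1 and 15.4 CPM (−4.24 ± 0.81, adjusted p = 0.0166, edgeR). Each of these genes was many times higher in every Y541S N library than in any D542G N library. In the mesenchymal transition list, Vim, Mmp2, Prrx1 and Postn were called among 18 tested, all higher in Y541S N (median −0.84; 1.01% over all genes). That count was 0 without D542G N 1 or 3, 1 without D542G N 2 or Y541S N 1, and 3 and 4 without Y541S N 2 and 3. Among genes chosen after their values were seen, the galectin Lgals1 was at 23, 58.6 and 39.03 CPM and 653, 705 and 236 CPM (−3.72 ± 0.49). Mxra8, a matrix-remodelling-associated surface protein, was at 23.8, 16.99 and 18.4 CPM and 284, 202 and 137 CPM (−3.40 ± 0.39). The proteoglycan Bgn (−2.63), elastin, Eln (−2.05), and the elastic fibre protein Fbln5 (−2.34) were called as well. Lgals1 and Mxra8 kept their call in all 6 left-out fits, Postn and Colgalt2 lost it without D542G N 1 or 3, and Prrx1 without any 1 D542G N library or Y541S N 1. Bgn and Eln kept it only without Y541S N 3, and Fbln5 only without D542G N 2 or Y541S N 3.

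Proteases that cut the matrix were called in 1 direction, higher in Y541S N. Among 19 tested matrix proteases and inhibitors, 4 were called higher in Y541S N, all of them proteases, and 1, a receptor, in D542G N. Over all genes tested the shares called were 1.01% and 0.421%. The list median was −0.82, and it was −1.43 without D542G N 2, −0.46 without Y541S N 1 and −1.41 without Y541S N 2. Plat, tissue plasminogen activator, was at 23.7, 13.2 and 22.5 CPM in D542G N and 189, 109 and 98.6 CPM in Y541S N (−2.74 ± 0.39, adjusted p = 0.00315, edgeR), a call that held with each library left out. Mmp2, gelatinase A, was at 96.1, 71.1 and 94.3 CPM and 1101, 666 and 492 CPM (−3.11 ± 0.59, adjusted p = 0.0169, edgeR), and lost its call without any 1 D542G N library or Y541S N 1. The metalloproteases Adamts1 (−1.93) and Adamts4 (−2.49) kept theirs only without Y541S N 3. Plaur, the urokinase receptor, went the other way at 211, 223 and 228 CPM in D542G N and 88.7, 56.9 and 72.8 CPM in Y541S N (1.60 ± 0.36, adjusted p = 0.041, edgeR), and lost its call with any library left out. Over the 6 left-out fits, 1 to 4 members were called higher in Y541S N: 2 without Y541S N 2, 4 without Y541S N 3 and 1 without each of the others.

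Markers of other cell types that carry matrix or contractile genes were measured beside these groups. The 10 pericyte markers summed to 112, 115 and 112 CPM in D542G N and 439, 388 and 317 CPM in Y541S N. Mcam, an adhesion molecule also found outside pericytes, made up the largest part of that sum at 65.4, 68.3 and 65.6 CPM and 328, 248 and 146 CPM and was the 1 called member (−1.86 ± 0.36, adjusted p = 0.0176, edgeR; kept only without Y541S N 3). Rgs5, a defining pericyte gene, was at 17.7, 16.7 and 20.7 CPM and 29.3, 34.4 and 45.03 CPM (adjusted p = 0.499, edgeR), and Des, desmin, at 2.78, 5.53 and 4.65 CPM and 5.50, 3.17 and 5.41 CPM. The list median was −1.62, with 5 of 10 markers higher in every Y541S N library and none in every D542G N library. Of all 18298 genes tested, 2263 were higher in every Y541S N library and 2188 in every D542G N library. The 13 fibroblast markers summed to 1921, 2126 and 2051 CPM and 2388, 2598 and 5125 CPM, most of it from Gsn, gelsolin, and none was called by edgeR in the model of all 18 libraries, where none had an unadjusted p under 0.05, or by DESeq2 or limma-voom. In a fit of the 6 N libraries alone edgeR called 1, higher in Y541S N. The list median was −1.06 (−0.36 without Y541S N 3 and −1.60 without D542G N 3), with 5 of 13 markers higher in every Y541S N library and 2 in every D542G N library. Dcn, decorin, was 1 of these 2, at 371, 255 and 284 CPM in D542G N and 175, 128 and 70.7 CPM in Y541S N. The 15 endothelial markers summed to 235, 233 and 353 CPM and 497, 1198 and 531 CPM, 10 of them with every Y541S N library above every D542G N library. None was called by edgeR in the model of all 18 libraries, where 9 had an unadjusted p under 0.05. DESeq2 called 6, limma-voom 6, and edgeR 3 in the 6 N libraries alone and 2 in the 9 N libraries, all higher in Y541S N. No marker of these 3 lists was at 0 in all 6 libraries. The sums of all 3 lists were thus higher in each Y541S N library, as were the contractile and matrix genes, and their part in those results was not tested.

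**Figure D2:**
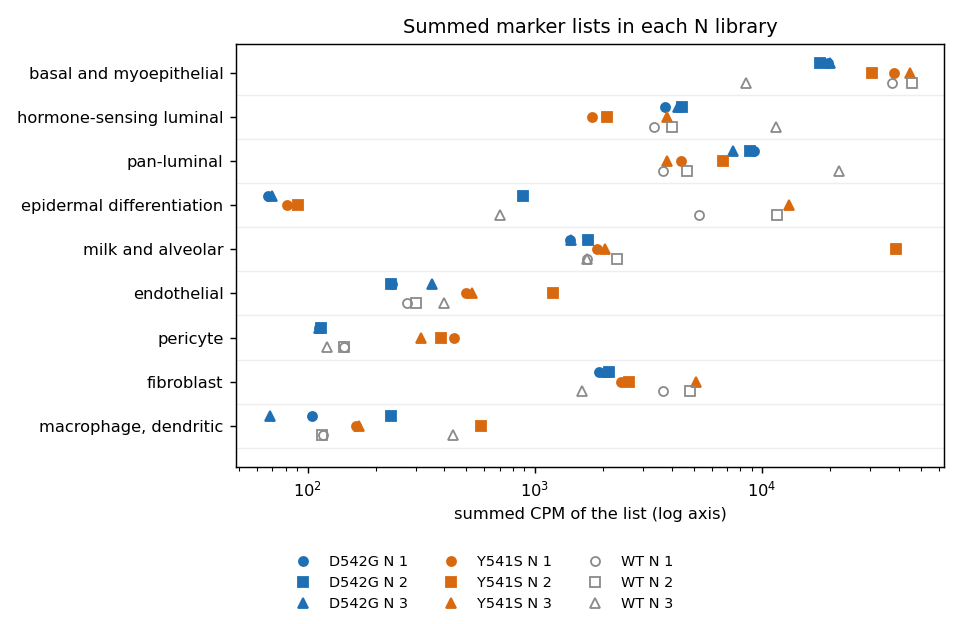
Summed CPM of 9 marker lists in each of the 9 N libraries on a log axis, with colour for genotype and shape for library number. Y541S N 3 stands out in epidermal genes (13132 CPM), Y541S N 2 in milk genes (38921 CPM), and the pericyte sums of the 3 Y541S N libraries (317 to 439 CPM) lie above those of D542G N (112 to 115 CPM).

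The other leading genes higher in Y541S N were secreted, surface and signalling proteins. Serpinf1, the secreted serpin PEDF (ENSMUSG00000000753, chromosome 11, 75409769 to 75422701), was at 10.1, 9.49 and 9.15 CPM in D542G N and 338, 196 and 138 CPM in Y541S N (−4.55 ± 0.52, adjusted p = 0.000855, edgeR). Lgr5, a receptor for R-spondins that amplifies Wnt signals, was at 27.4, 37.6 and 27.9 CPM and 982, 705 and 297 CPM (−4.42 ± 0.97, adjusted p = 0.0361, edgeR). Its span overlaps that of A930009A15Rik on GRCm38, and whether counting used the strand is not given in the sources used here, so its count is uncertain. Slc2a13, a transporter of myo-inositol, was at 1.80, 1.86 and 0.962 CPM and 54.3, 39.9 and 17.8 CPM (−4.59 ± 0.75). The remaining leading genes were Pamr1 (−4.42), Tmem88b (−4.41), C2cd4b (−4.18) and Clmp, a junctional adhesion molecule (−4.13). The calls of Serpinf1 and C2cd4b held with each library left out. Slc2a13 lost its call without D542G N 1 or 3 and Tmem88b without any 1 D542G N library, while Pamr1, Lgr5 and Clmp kept it only without Y541S N 3. Mme, the surface peptidase CD10, chosen after its values were seen, was at 25.2, 40.6 and 16.3 CPM and 697, 363 and 161 CPM (−3.90 ± 0.64) and lost its call without D542G N 1 or 3.

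**Figure D3:**
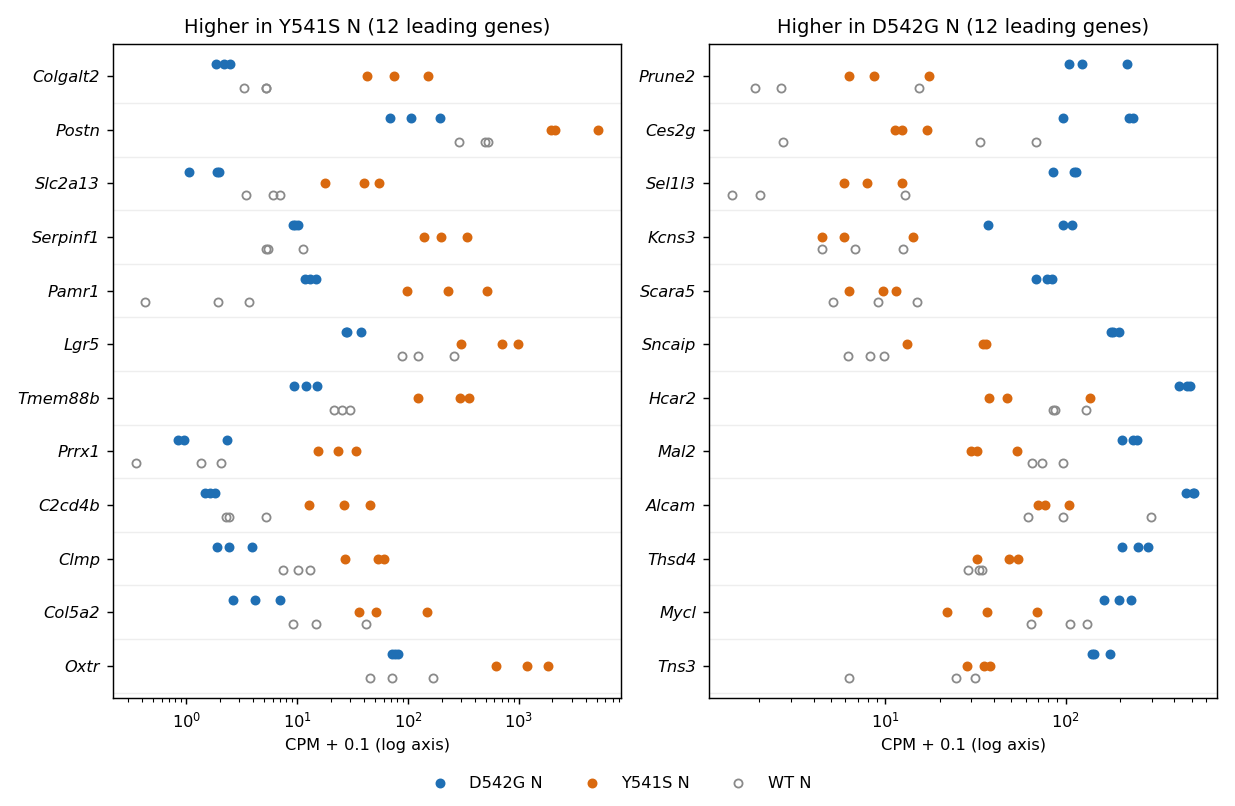
The 12 leading genes in each direction, as CPM + 0.1 on a log axis in the 9 N libraries, with 1 point per library. Blue D542G points and orange Y541S points do not overlap for any of the 24 genes, by the rule that chose them, and the open WT points mostly lie beside the lower group.

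Genes higher in D542G N were fewer and their differences smaller. Ier5, an immediate early gene (ENSMUSG00000056708, chromosome 1, 155096361 to 155099636), was at 1531, 1368 and 1347 CPM in D542G N and 310.1, 352 and 369 CPM in Y541S N. Both groups were tight, and its fold change of 2.04 ± 0.22 (adjusted p = 0.000855, edgeR) was called in every alternative fit. It was the 1 called member of 23 immediate early genes, while 0.421% of all genes tested were called higher in D542G N. The median of these 23 genes was −0.06 and ran from −0.18 without Y541S N 1 to 0.30 without Y541S N 3. Scara5, a scavenger receptor that takes up ferritin (ENSMUSG00000022032, chromosome 14, 65666403 to 65764826), was at 83.98, 78.6 and 68.2 CPM and 11.3, 9.63 and 6.17 CPM (3.09 ± 0.40, adjusted p = 0.00195, edgeR). Thsd4, a microfibril-associated ADAMTS-like protein (ENSMUSG00000032289, chromosome 9, 59966931 to 60522046), was at 285, 205 and 252 CPM and 48.3, 54.3 and 32.2 CPM (2.46 ± 0.33, adjusted p = 0.00218, edgeR). These 3 genes had every D542G N library more than 3-fold above every Y541S N library.

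Epithelial trafficking, adhesion and metabolite-sensing genes were among the leading genes of the same direction. Mal2, a protein of apical transport in polarised epithelium, was at 248, 206 and 236 CPM and 29.7, 31.9 and 53.8 CPM (2.58 ± 0.35, adjusted p = 0.00224, edgeR). Hcar2, the receptor for niacin and beta-hydroxybutyrate, was at 473, 488 and 425 CPM and 47.01, 37.6 and 136 CPM (2.65 ± 0.44, adjusted p = 0.00838, edgeR), with Y541S N 3 the highest of its group. Alcam, an adhesion molecule of the immunoglobulin family, was at 517, 507 and 465 CPM and 104, 69.96 and 76.4 CPM (2.57 ± 0.42, adjusted p = 0.00833, edgeR). The largest fold changes were those of Prune2 (3.80 ± 0.76), the carboxylesterase gene Ces2g (3.79 ± 0.89), Sel1l3 (3.59 ± 0.83) and Kcns3, a modulatory potassium channel subunit (3.32 ± 0.65). Sncaip, which binds alpha-synuclein (2.74), the Myc family member Mycl (2.21) and the focal adhesion protein Tns3 (2.18) completed the 12. Ier5, Scara5, Thsd4, Mal2 and Hcar2 were called whichever library was dropped. Alcam lost its call without Y541S N 2, Sncaip without D542G N 1 or 3, and Kcns3 without D542G N 1, D542G N 2, Y541S N 2 or Y541S N 3. Prune2 kept it only without Y541S N 1, Mycl only without Y541S N 3, and Ces2g, Sel1l3 and Tns3 lost it with any library left out.

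The called hormone receptors went in opposite directions. Ghr, the growth hormone receptor, was at 471, 660.1 and 695 CPM in D542G N and 186, 177 and 138 CPM in Y541S N (1.86 ± 0.34, adjusted p = 0.013, edgeR), and Oxtr went the other way. Among 9 steroid and lactogenic receptors tested these were the called members. The shares called over all genes tested were 0.421% higher in D542G N and 1.01% higher in Y541S N. Sgk1, a kinase induced by glucocorticoids and progestins, was at 3801, 2828 and 3335 CPM and 1395, 1220.2 and 867 CPM (1.52 ± 0.28, adjusted p = 0.0146, edgeR), the 1 called of 16 progesterone response genes. Their median was 0.44, and it was 0.19 without D542G N 2, 0.25 without D542G N 3 and 0 without Y541S N 1. Nrip1, a corepressor of nuclear receptors chosen after its values were seen, was at 1006, 771 and 1051 CPM and 375, 405 and 355 CPM (1.32 ± 0.18, adjusted p = 0.00224, edgeR). Nrip1 was called whichever library was dropped, Ghr lost its call without D542G N 2, D542G N 3 or Y541S N 2, and Sgk1 without D542G N 1, D542G N 3 or Y541S N 2.

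Esr1, Foxa1 and Pgr had every D542G N library above every Y541S N library, and the test did not call them. Esr1 itself was at 313, 249.97 and 238 CPM in D542G N and 112, 67.5 and 49.9 CPM in Y541S N (1.80 ± 0.98, adjusted p = 0.432, edgeR). Its reads do not tell the alleles apart in a table of gene counts, so Esr1 gives no check of the genotype labels. Foxa1, the factor that opens chromatin for the receptor, was at 817, 652 and 823 CPM and 114, 107 and 43.02 CPM (3.12 ± 1.21, adjusted p = 0.25, edgeR). Pgr, the progesterone receptor and a classical estrogen target, was at 24.2, 27.1 and 19.4 CPM and 11.6, 6.64 and 3.50 CPM (1.70 ± 1.06, adjusted p = 0.5, edgeR). Gata3, a luminal factor that works with the receptor, had the reverse order, at 100.5, 131 and 128 CPM and 180.1, 167 and 141 CPM (−0.44 ± 0.38, adjusted p = 0.658, edgeR). Prlr, the prolactin receptor, was at 151, 144 and 94.2 CPM and 76.2, 139 and 55.4 CPM, with overlapping groups. In a fit of the 6 N libraries alone the adjusted p of Esr1 was 0.0274 and that of Foxa1 0.0112. The WT N libraries were at 10.7, 14.9 and 307 CPM for Esr1. That spread enters the model of all 18 libraries, and its part in the adjusted p was not tested. Of 24 estrogen response genes tested, the 1 called in the model of all 18 libraries was Rasd1, a Ras-related protein. It was at 28.04, 36.2 and 28.5 CPM and 79.9, 94.5 and 67.2 CPM and thus higher in Y541S N (−1.38 ± 0.24, adjusted p = 0.00996, edgeR). Without D542G N 1, D542G N 3 or Y541S N 2 it was not called. The median of the list was 0.27, and it was 0.11 without D542G N 3, 0.03 without Y541S N 1 and 0.48 without Y541S N 2. DESeq2 and limma-voom each called 3 of the 24 higher in D542G N and 2 higher in Y541S N. In the 6 N libraries alone edgeR called 2 in each direction. For 6 of the 24 every D542G N library lay above every Y541S N library and for 6 the reverse. Over all genes tested, 24.3% had no overlap in either direction, and edgeR called 1.43% in the model of all 18 libraries. Greb1 (−0.60 ± 0.46) and Areg (1.01 ± 0.61), both estrogen targets, were not called.

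Luminal lists differed in direction. In the model of all 18 libraries edgeR called 0.421% of all genes tested higher in D542G N and 1.01% higher in Y541S N. The hormone-sensing list shares genes with the preceding paragraph, Prlr among them, so its counts are not independent of the values given there. None of 21 hormone-sensing luminal genes was called by edgeR in the model of all 18 libraries, where 3 had an unadjusted p under 0.05. DESeq2 and limma-voom called 2 each, and edgeR called 4 in the 6 N libraries alone, 1 without Y541S N 3 and 1 with the replicate number as a block, all higher in D542G N. In 6 of the 21 every D542G N library lay above every Y541S N library and in 1 the reverse, against 24.3% without overlap over all genes, and the list median was 0.52 (0.26 without Y541S N 3). Of 15 pan-luminal genes, 8 had all 3 D542G N libraries above all 3 of Y541S N. Over all 18298 genes tested, 2188 had this order and 2263 the reverse. In the model of all 18 libraries edgeR called none of these 8 pan-luminal genes. Higher in D542G N, limma-voom called 3 pan-luminal genes, edgeR 2 in the 6 N libraries alone and DESeq2 1. DESeq2 also called 1 higher in Y541S N. Epcam, the epithelial adhesion molecule, was at 1718, 1675 and 1598 CPM and 708, 995 and 566 CPM (1.14 ± 0.40, adjusted p = 0.192, edgeR; 0.0457 in the 6 N libraries alone). The called member, Muc1, a surface mucin, was higher in Y541S N at 5.44, 3.39 and 3.43 CPM and 9.35, 80.2 and 18.3 CPM (−3.14 ± 0.63, adjusted p = 0.0225, edgeR). Muc1 was highest in the library with high milk genes, and without Y541S N 2 the fold change was −1.74 and not called, and the call was also lost without any 1 D542G N library. Of 17 luminal progenitor genes, 7 had every Y541S N library above every D542G N library and 1 the reverse. Their median was −1.46, and it was −2.22 without D542G N 2. DESeq2 called 7 of the 17 and limma-voom 4, all higher in Y541S N, and edgeR called 1 in the model of all 18 libraries. Sox10, a transcription factor of the progenitor and neural crest state, was called at 9.98, 13.7 and 7.35 CPM and 166, 147 and 66.5 CPM (−3.62 ± 0.62, adjusted p = 0.00918, edgeR), and not without D542G N 1 or 3. Elf5, the factor that directs alveolar fate, was at 1.29, 4.90 and 0.587 CPM and 3.34, 67.1 and 7.95 CPM (adjusted p = 0.0955, edgeR), and Csn2, beta-casein, was at 0, 0 and 0.0235 CPM and 0, 17514 and 0.0503 CPM, high in Y541S N 2 alone of these 6.

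**Figure D4:**
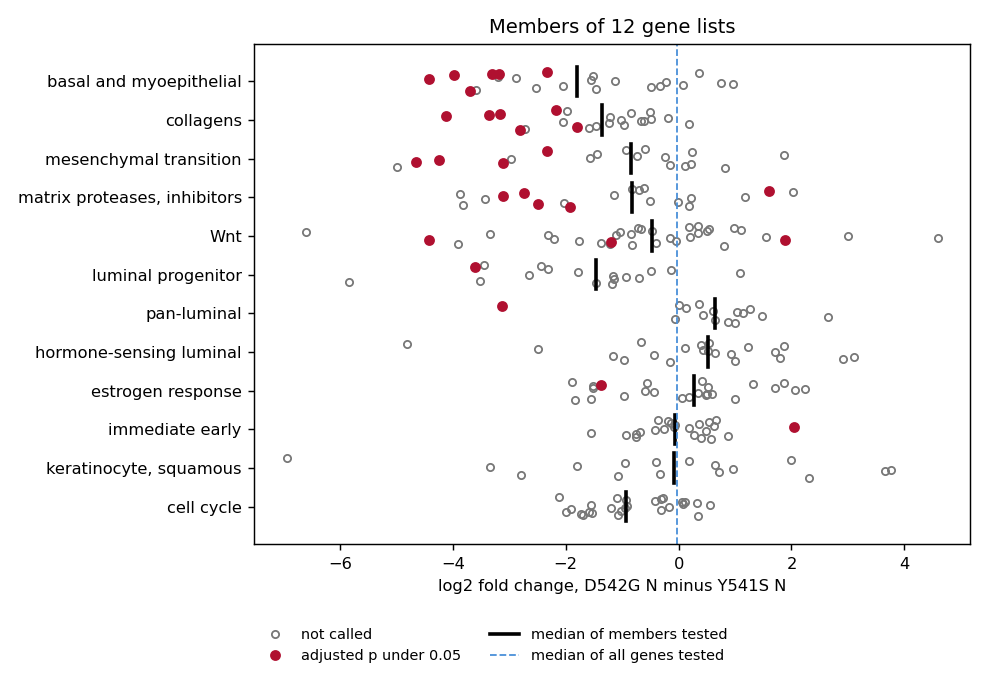
Log2 fold change of every tested member of 12 gene lists, D542G N minus Y541S N, with called members filled in red, list medians as black bars and the median of all genes as a dashed line. Called members of the basal, collagen and mesenchymal lists all lie to the left, higher in Y541S N, while the pan-luminal and hormone-sensing medians (0.64 and 0.52) lie to the right with no called member there.

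Several signalling, stress and metabolic lists held called genes. Over all genes tested, edgeR called 0.421% higher in D542G N and 1.01% higher in Y541S N. Of 33 Wnt genes, the R-spondin receptor Lgr6 was higher in D542G N, at 311, 264 and 233 CPM against 70.5, 62.7 and 84.2 CPM (1.89 ± 0.32, adjusted p = 0.00869, edgeR), whereas its relative Lgr5 and the Wnt receptor Fzd7 (−1.20 ± 0.23) were higher in Y541S N. Lgr6 and Lgr5 thus lay in opposite directions with no overlap of the groups for either. Lgr6 lost its call without D542G N 1 or Y541S N 2, and Fzd7 without D542G N 2, D542G N 3 or Y541S N 1. DESeq2 called 2 of the 33 higher in D542G N and 6 higher in Y541S N, and limma-voom 4 and 7. Among inflammatory genes, the adhesion receptor Icam1 (1.32 ± 0.31) and the interleukin 1 receptor Il1r1 (1.75 ± 0.32) were higher in D542G N, and the macrophage growth factor Csf1 (−1.91 ± 0.40) in Y541S N. Tgfb1, the cytokine TGF-beta, differed by 0.73 ± 0.16. Icam1 lost its call with any library left out, Tgfb1 with any but D542G N 2, Csf1 with any but Y541S N 3, and Il1r1 without D542G N 1 or Y541S N 2. Of 20 fatty acid synthesis genes the desaturase Fads2 (−2.96 ± 0.50) and the elongase Elovl5 (−1.91 ± 0.32) were higher in Y541S N. Both calls were lost without D542G N 1 or 3. DESeq2 called 4 of the 20 and limma-voom 3, all higher in Y541S N. Among genes chosen after their values were seen, Cpt1a, the gate of fatty acid entry into mitochondria (1.50 ± 0.26), and both chains of the trifunctional protein, Hadha (1.14 ± 0.21) and Hadhb (1.13 ± 0.22), were higher in D542G N. Scp2, the peroxisomal sterol carrier protein (−2.09 ± 0.28), and Echdc2, of the enoyl-CoA hydratase family (−1.20 ± 0.27), were higher in Y541S N, and no list of fatty acid oxidation was fixed. Scp2 was called in all 6 left-out fits and Echdc2 only without Y541S N 3. Cpt1a lost its call without D542G N 1 or 3, Hadha without D542G N 1, D542G N 3 or Y541S N 2, and Hadhb with any library left out but Y541S N 1. Further called members were Itga9, an integrin chain (−3.32 ± 0.62), the small heat shock protein Cryab (−2.28 ± 0.38), the CDK inhibitor Cdkn2c (−1.47 ± 0.33) and the epidermal protease Asprv1 (−3.18 ± 0.69), all higher in Y541S N, and Mbp, myelin basic protein (1.02 ± 0.17), higher in D542G N. Itga9 lost its call without any 1 D542G N library or Y541S N 1, Cryab without D542G N 1 or 3, Mbp without D542G N 3, Cdkn2c with any library left out but Y541S N 1, and Asprv1 with any. Of 26 cell cycle genes none was called by edgeR, DESeq2 or limma-voom or had an unadjusted p under 0.05 in the model of all 18 libraries. Their median was −0.93, with the sign turned without Y541S N 3 (0.26) and −0.62 without D542G N 3, and it was 0.01 with limma-voom. Y541S N 3 was the highest of the 6 libraries for Mki67, Top2a and Ccna2.

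The WT N libraries were set beside both mutants, as a description of CPM values with no test. For 67 of the 77 genes called higher in D542G N, all 3 WT N libraries lay below the lowest D542G N library, and for 123 of the 184 called higher in Y541S N all 3 lay below the lowest Y541S N library (87.0% and 66.8%). Over all genes tested these shares were 13.0% and 9.45%. The called genes had been chosen for high values in 1 mutant, and over all genes without overlap between the mutants the shares were 944 of 2188 higher in D542G N (43.1%) and 789 of 2263 higher in Y541S N (34.9%). Ier5 was at 205, 212 and 360.1 CPM and Scara5 at 5.01, 9.03 and 14.9 CPM in WT N, both beside Y541S N. Acta2 was at 104, 181 and 582 CPM and Tagln at 6.84, 5.43 and 11.8 CPM in WT N, both beside D542G N. Sparc, at 1019, 519.9 and 451 CPM, lay between the mutants. WT N 3 had luminal sums well above those of WT N 1 and 2 (21835 against 3679 and 4697 CPM for the pan-luminal list), and without it the counts were 73 of 77 and 135 of 184.

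In the ML gate the same contrast of genotypes called no gene (0%) with edgeR, where 886 genes had an unadjusted p under 0.05. DESeq2 called 63 genes there and limma-voom 10. Genes called in N, whose choice by N values favours large differences there, had in ML a median of 0.09 for the 77 genes and −0.45 for the 184 genes, against −0.01 over all genes tested. Their sign in ML was the same as in N for 46 of the 77 and 143 of the 184. The test of the difference between the gates called 20 genes (0.109%), 11 with the higher value in N and 9 with the lower, and all 20 were among the 261. For Ier5 the genotype difference was 2.04 in N and −0.44 in ML (difference 2.48 ± 0.31, adjusted p = 0.0131, edgeR). For Scara5 it was 3.09 and −0.83 (difference 3.92 ± 0.54, adjusted p = 0.0134, edgeR), and for Mxra8 −3.40 and 0.56 (difference −3.95 ± 0.52, adjusted p = 0.0131, edgeR). N and ML libraries with the same genotype and number deviated together, and with these pairs as a block 7 genes were called, 4 of them among the 20: Ier5, Mxra8, Scara5 and Thsd4. No gene was called without D542G N 1, without D542G N 3 or without Y541S N 2. For Acta2, −3.70 in N and −0.08 in ML, the difference between the gates was not called (adjusted p = 0.203, edgeR), nor was it for Oxtr, Tagln or any collagen.

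**Figure D5:**
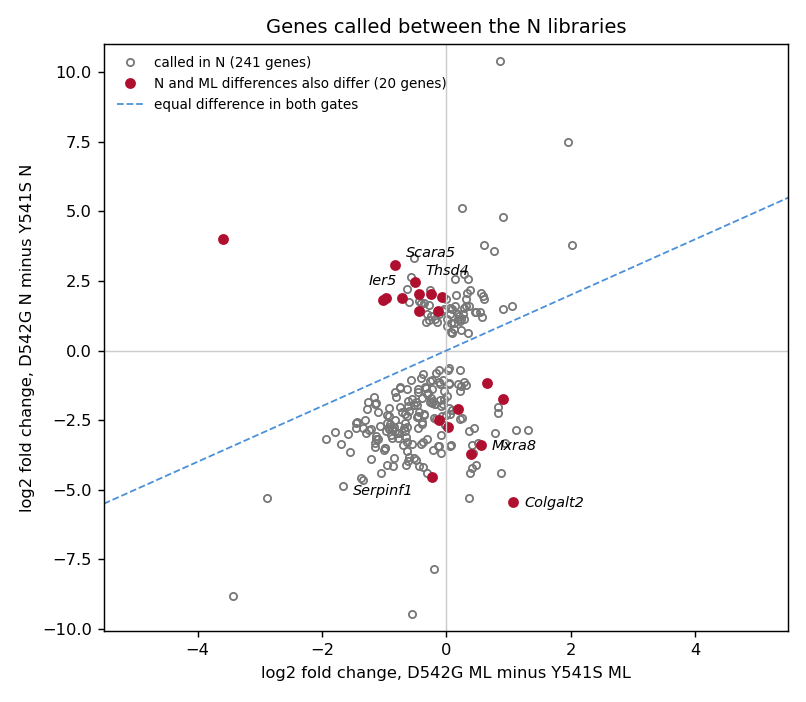
Log2 fold change between the mutants in N (vertical) against that in ML (horizontal) for the 261 genes called in N, with the 20 genes whose differences also differ between gates in red. Most points lie in a narrow band around 0 on the horizontal axis, farther from 0 in N than the dashed line of equal differences.

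The called genes were spread over the genome. On chromosome 10, which carries Esr1 (ENSMUSG00000019768, chromosome 10, 4611593 to 5005614), 15 of 902 tested genes were called (1.66%), and within 20 Mb of the start of Esr1 2 of 117 (1.71%), Sgk1 and Armt1. Both shares are near the 1.43% of all genes tested. Chromosome 19, which carries Acta2 and Prune2, had 17 called of 577 (2.95%) and the X chromosome 4 of 657 (0.609%).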

How the data were processed

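Each deposited table gives 52636 mouse genes with a count, an RPKM value and a gene width, made by the authors on GRCm38, as the submitters' processing notes record. Aligner, counter and use of strand: not given in the sources used here. The deposited counts are whole numbers and were tested; the deposited RPKM and width columns were not used. GENCODE M21 gave symbols and coordinates for 52489 identifiers (99.7%).

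In R 4.3.3, edgeR 4.0.16 kept 18298 genes (filterByExpr, minimum count 10, minimum total 15), scaled libraries by TMM (factors 0.850 to 1.10) and fitted 6 group means over all 18 libraries (12 residual degrees of freedom). Each comparison was a contrast with Benjamini-Hochberg adjustment over all genes tested. CPM uses the scaled library totals. Alternatives were RLE scaling, no filter, DESeq2 1.42.0, voom of limma 3.58.1 with quality weights, a robust fit, fits of the N libraries alone, a replicate block and each library left out. The code was tested on simulated counts.

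Named genes are the 12 highest and 12 lowest fold changes among called genes with average log2 CPM of at least 3 and no overlap, passing over predicted genes, up to 4 members of each of 48 lists by p, and a fixed set of hormone and identity genes. The comparison, its members and the lists were chosen with earlier results of these data known. Other genes are named as chosen after their values were seen, as are list members given for contrast (Myh11, Cnn1, Col1a1, Col3a1, Rgs5, Des, Dcn, Gsn) and called members beyond 4 of a list.

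Deviations from group means of an N and an ML library that share genotype and number correlated at 0.241 to 0.556 in all 6 mutant pairs, and each correlated best with its own number, so these were taken as pairs. The labels do not state that such libraries share an animal, so this rests on the values. The labels call the 3 libraries of a group biological replicates, and their counts differed by more than sampling noise (chi-square over its degrees of freedom at least 70.1). Intervals were not computed for single libraries.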

Additional observations from a re-analysis of the deposited data

Results flagged for a closer look

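For 20 genes the difference between D542G and Y541S in N differed from that in ML by the interaction test of edgeR (adjusted p under 0.05), given here as the N difference minus the ML difference on the log2 scale. Higher values in N than in ML were found for Gm17344 (7.59), Scara5 (3.92), Thsd4 (2.97), Lgr6 (2.86), Steap4 (2.83), Afap1l2 (2.59), Ier5 (2.48), Sesn3 (2.30), Nfe2l3 (2.0), Impa2 (1.85) and Ddi2 (1.56). Lower values were found for Colgalt2 (−6.52), Serpinf1 (−4.31), Lgals1 (−4.12), Mxra8 (−3.95), Plpp1 (−2.79), Mgat4b (−2.65), Hs3st1 (−2.39), Scp2 (−2.27) and Lgals9 (−1.83). Gm17344 rests on few reads, with at most 1.71 CPM in any of the 6 N libraries. With N and ML libraries as pairs, Ier5, Scara5, Mxra8 and Thsd4 were still called (adjusted p 0.0444 to 0.0490, edgeR).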

How the results depend on the processing

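The 261 genes called between D542G N and Y541S N came to 262 with RLE scaling, 211 with no filter, 248 in the robust fit and 241 in the 9 N libraries alone. DESeq2 called 1135 and limma-voom 1221, and the 6 N libraries alone gave 649, the cause of which was not tested. Leaving out each library in turn gave 56 to 294, with fewer samples in each such fit. In ML DESeq2 called 63 and limma-voom 10, and every other fit called 0. The 20 genes that differed between gates became 323 with DESeq2, 263 with limma-voom, and 0 to 23 with each library left out.

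Equal numbers of D542G N and Y541S N do not pair the samples (deviations correlated at 0.30, −0.22 and −0.24, and 1 of 3 correlated best with its own number). With the number as a replicate block, 155 genes were called, 86 of them among the 261. With each N library paired to its ML library, the replicate block left 7 genes whose differences differ between gates.

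Among the genes named by the rule, signs turned for 4 with no call and fold changes near 0. Over the left-out fits, Ccnd1 (0.05) ran from −0.20 without Y541S N 1 to 0.49, and was at −0.03 without D542G N 2 and −0.05 without Y541S N 3. Itga6 (0.07) ran from −0.12 without Y541S N 2 to 0.20, Krt14 (−0.22) from −0.39 to 0.17 without Y541S N 3, and Krt8 (0.12) from −0.22 without Y541S N 3 to 0.47. Medians turned sign in at least 1 alternative for 18 of the 48 lists, and for 10 of them without Y541S N 3, such as epidermal differentiation (−2.65, then 3.37) and cell cycle (−0.93, then 0.26). All 6 libraries hold at least 40939626 counts.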

Other observations

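Genes higher in D542G N whose call held with each library left out, in no list and chosen after their values were seen, included Sesn3, a stress-responsive sestrin, at 101, 81.1 and 114 CPM in D542G N and 26.9, 23.1 and 21.6 CPM in Y541S N (2.05 ± 0.24, adjusted p = 0.000893, edgeR). Fat1, a giant protocadherin, was at 363, 291 and 382 CPM and 128, 71.6 and 90.5 CPM (1.84 ± 0.30, adjusted p = 0.00753, edgeR). Nfe2l3, a transcription factor of the CNC family, was at 35.5, 39.98 and 32.98 CPM and 12.6, 7.80 and 8.21 CPM (1.92 ± 0.24, adjusted p = 0.00147, edgeR). In WT N these genes were at 23.6, 11.8 and 18.1 CPM, 66.9, 52.5 and 96.1 CPM and 23.9, 17.5 and 16.9 CPM.

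Of genes higher in Y541S N with a call that held in the same way, Hs3st1, which sulfates heparan sulfate, was at 7.22, 10.03 and 10.4 CPM and 37.2, 67.3 and 53.3 CPM (−2.51 ± 0.26, adjusted p = 0.000855, edgeR). Plpp1, a lipid phosphatase, was at 12.8, 17.4 and 15.5 CPM and 104, 147 and 58.4 CPM (−2.76 ± 0.32, adjusted p = 0.000855, edgeR). Mgat4b, an enzyme that branches N-glycans, was at 33.9, 39.4 and 24.8 CPM and 109.7, 126 and 91.2 CPM (−1.74 ± 0.25, adjusted p = 0.00344, edgeR).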
